A study of Rattus norvegicus with 10 samples.

Results

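Genes of the serotonin and prolactin pathways were examined in rat islets, which hold the endocrine cells of the pancreas, after 10 days of cafeteria feeding. The rule names 10 genes (Tph1, Tph2, Ddc, Maoa, Maob, Slc18a2, Htr1d, Htr2b, Prlr and Stat5a) and takes every probeset, the array's unit of measurement, that carries such a name as its single gene symbol. It found 13 probesets of 8 genes, out of 31042 probesets that are not controls and 14217 named genes on the array. Tph1 and Tph2, the tryptophan hydroxylases, had no probeset under their symbol in the platform annotation used here, so their level was not analysed here.

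The islets came from male Wistar rats aged 7 weeks and caged singly, and were freed with collagenase, separated on Histopaque and hand-picked. The standard group ate chow with 8% of its calories as fat and the cafeteria group a cafeteria diet with 66%, and each group had 5 arrays of independent samples on the 1-colour Affymetrix Rat Genome 230 2.0. Groups were taken from the titles. On all 10 arrays the diet characteristic names the opposite diet, and if that field were right every direction given here would turn. The comparison asks whether islets under a short dietary load show the serotonin and prolactin response that islets show in pregnancy.

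As background, serotonin is made from tryptophan by a tryptophan hydroxylase and then by the decarboxylase that Ddc encodes, is loaded into granules by the vesicular transporter of Slc18a2, and is broken down by the monoamine oxidases and an aldehyde dehydrogenase. In pregnancy, prolactin and placental lactogen act on the prolactin receptor of the beta cell, and the kinase Jak2 and the transcription factor Stat5 pass the signal on. Tph1 is the best known target of this signal in islets, and the serotonin it yields acts back on beta cells through Htr2b, which favours proliferation, and Htr1d, which opposes it.

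The arrays read as islets. The beta cell markers Ins1, Ins2, Iapp, Mafa and Slc2a2 all lay at or above percentile 99.5 of the probesets in brightness, and the summed signal of 8 beta cell markers ran from 102516.2 to 121192.5 in the standard arrays and from 106364.7 to 149928.9 in the cafeteria arrays. Cafeteria replicate 5 held the highest of these sums and standard replicate 5 the lowest. Of the 8, the 5 named had a higher mean log2 value in the cafeteria group. The other 3 were lower: Pdx1 by -0.21, Nkx6-1 by -0.15 and Glp1r by -0.33. The summed signal of 11 immune cell markers ran from 4077.0 to 16179.5 and from 4001.8 to 18402.1, and 11 of the 11 had a lower mean log2 value in the cafeteria group. For 12 acinar cell markers the sums ran from 9675.5 to 22843.1 and from 4459.5 to 22899.7, so acinar RNA was present too. Of the 12, 3 had a higher and 9 a lower mean log2 value in the cafeteria group. GAPDH control probesets at the 3 prime and 5 prime ends, whose ratio reads RNA integrity, gave ratios that ran from 1.003 to 1.264 in the standard arrays and from 0.964 to 1.115 in the cafeteria arrays. The same ratio of beta-actin ran from 2.509 to 3.203 and from 2.243 to 3.006. The GAPDH ratio was tied to diet: among standard arrays only replicate 2, at 1.003, lay below the highest cafeteria array. A fit adjusted for the GAPDH ratio therefore cannot tell diet from RNA integrity. Values are MAS5 signals in arbitrary units that depend on the probes. Percentiles, marker sums and the words bright and dim therefore describe brightness on the array and do not compare RNA amounts between genes. In whole islets, fewer cells of a type cannot be told apart from less RNA per cell.

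No member passed the test across the array. Log2 values were compared with limma's moderated test, and the Benjamini-Hochberg adjusted p over the 18625 probesets above a brightness filter had to be under 0.05. Of the 13 member probesets, 8 from 5 genes (Ddc, Maoa, Maob, Prlr and Stat5a) passed the filter, and 5 from 3 genes (Slc18a2, Htr1d and Htr2b) did not. Past the adjusted threshold were 0 of the 8, against 0 of 18625 (0%) in the background. At an unadjusted p under 0.05 there was 1 of the 8, Maob, against 10.4% of all probesets tested, so the share of members was close to the background. Maob was lower in the cafeteria group, as were 4.91% of all probesets at that p, and no member was among the 5.51% that were higher. The median log2 difference of the 8, cafeteria minus standard, was 0.086, with 5 higher and 3 lower, beside 0.006 and 51.4% higher over all probesets tested. The 5 higher were the 3 Prlr probesets, Stat5a and the dimmer Ddc probeset.

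**Figure D1:**
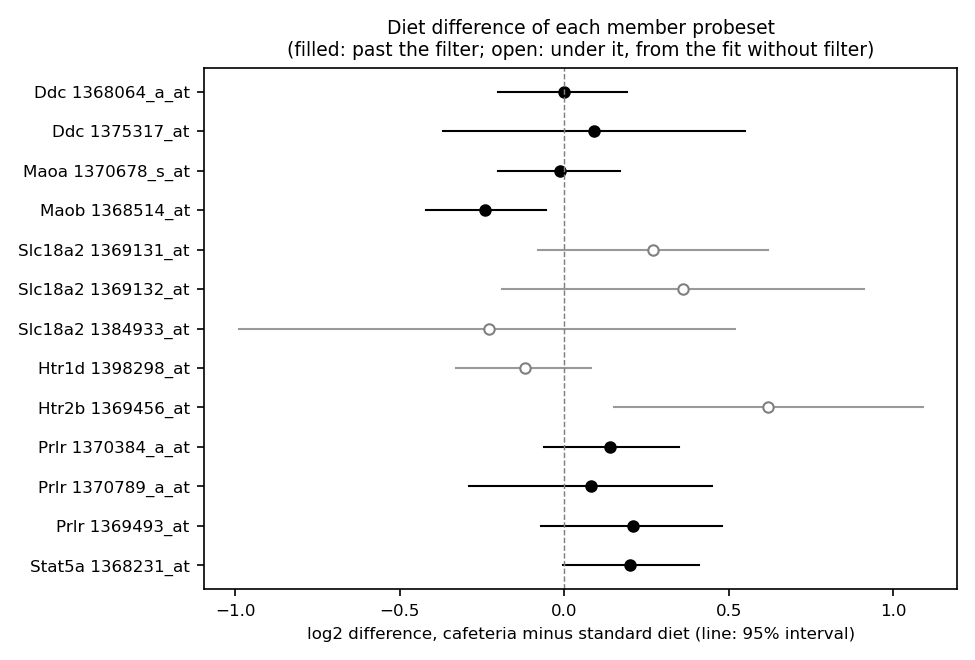
Log2 difference, cafeteria minus standard diet, on the horizontal axis for each of the 13 member probesets, with the 95% interval as a line (n = 5 arrays a group). Filled points passed the brightness filter and open points did not; the intervals of Maob (-0.42 to -0.054) and of the dim Htr2b (0.15 to 1.09) leave out 0, and the other 11 include it.

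In the synthetic step the Ddc means differed by far less than the spread between arrays. Ddc encodes aromatic amino acid decarboxylase, which turns 5-hydroxytryptophan into serotonin. Its brighter probeset (1368064_a_at, percentile 98.4) read 6650.3, 6782.5, 6233.1, 6120.3 and 5602.1 in standard replicates 1 to 5. In cafeteria replicates 1 to 5 it read 5796.2, 5632.9, 6313.1, 6664.0 and 6958.8, so the groups covered nearly the same range. The means were 6277.6 ± 468.2 (SD, n = 5) and 6273.0 ± 561.7 (SD, n = 5), with a log2 difference of -0.002 (SE 0.088) and a 95% interval from -0.20 to 0.19 (limma adjusted p = 0.995). That interval runs from 0.87 to 1.14 times the standard level. The dimmer probeset (1375317_at) averaged 302.5 ± 94.8 (SD, n = 5) and 312.5 ± 51.3 (SD, n = 5) with overlapping groups, a log2 difference of 0.092 (SE 0.209, limma adjusted p = 0.891). It turned to -0.090 without standard replicate 2, its lowest array at 168.8, and was 0.61 after adjustment for the GAPDH ratio (adjusted p = 0.432).

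The genes that supply this step were measured through 11 names for tryptophan uptake and for tetrahydrobiopterin, the cofactor of tryptophan hydroxylase. All 8 with a probeset passed the filter, 4 higher and 4 lower in the cafeteria group, with a median log2 difference of 0.015 beside -0.004 over all genes tested. None had an unadjusted p under 0.05, a mark that 10.3% of all genes reached. The lowest p belonged to Gch1, the first enzyme of cofactor synthesis, at 2059.7 ± 309.3 (SD, n = 5) and 2401.0 ± 297.8 (SD, n = 5), a log2 difference of 0.22 (SE 0.118, adjusted p = 0.52). Next came the amino acid transporter Slc16a10 at 0.17 (SE 0.105), Slc7a5, the light chain of a large neutral amino acid transporter, at -0.27 (SE 0.174), and Gchfr, the feedback regulator of Gch1, at -0.20 (SE 0.150). Gch1 stood at 0.075 after adjustment for the GAPDH ratio and at 0.071 for the immune marker mean, Slc16a10 at 0.051 for the immune marker mean, and Gchfr at -0.35 without cafeteria replicate 1.

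The vesicular transporter was dim. Slc18a2 encodes VMAT2, which loads monoamines into secretory granules. Its brightest probeset (1369131_at) lay at percentile 39.7, just outside the filter at percentile 40; the dimmest member probeset inside was a Prlr probeset at percentile 55.9. It read 73.3, 72.0, 87.1, 113.2 and 78.8 in standard replicates 1 to 5. The cafeteria arrays read 96.8, 75.5, 106.3, 113.4 and 137.6, with 2 of 5 above every standard array. In the fit without the filter the log2 difference was 0.27 (SE 0.158, limma adjusted p = 0.685). The other probesets differed by 0.36 (SE 0.249) and -0.23 (SE 0.341), at means between 30.7 and 78.9, so the 3 did not share a direction. No detection calls were used, so whether any of the 3 lay above background is unknown. Other storage and reuptake genes were also under the filter: the plasma membrane serotonin transporter Slc6a4 averaged 26.7 and 36.2, and Slc18a1, the sister of Slc18a2, 76.2 and 82.0, in the standard and cafeteria groups.

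The lowest p among members past the filter came from the breakdown enzyme Maob. Maob, which encodes monoamine oxidase B, was lower in the cafeteria group without passing the array-wide test. It read 10866.6, 10526.4, 10312.8, 10308.9 and 9035.1 in standard replicates 1 to 5 (probeset 1368514_at). In cafeteria replicates 1 to 5 it read 8733.3, 9407.1, 8683.1, 8915.5 and 7572.0. Of the cafeteria arrays 4 lay below every standard array, and the groups overlapped only between cafeteria replicate 2 and standard replicate 5. The means were 10209.9 ± 695.0 (SD, n = 5) and 8662.2 ± 673.2 (SD, n = 5), a log2 difference of -0.24 (SE 0.084) with a 95% interval from -0.42 to -0.054. The standard level was 1.18-fold the cafeteria level (1.04 to 1.34), with an unadjusted limma p of 0.0159 and an adjusted p of 0.418. Adjusted for the GAPDH ratio the log2 difference was -0.30, for the immune marker mean -0.27 and for the acinar marker mean -0.25 (adjusted p = 0.454, 0.655 and 0.366).

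Maoa, which encodes monoamine oxidase A, the form with the higher affinity for serotonin, showed no such gap. It read 4036.3, 3957.8, 4385.5, 4908.7 and 3991.4 in the standard arrays and 4206.8, 3939.1, 4249.7, 4585.0 and 4064.3 in the cafeteria arrays (probeset 1370678_s_at). The ranges overlapped almost wholly. The means were 4255.9 ± 403.1 (SD, n = 5) and 4209.0 ± 243.3 (SD, n = 5), a log2 difference of -0.013 (SE 0.084) with a 95% interval from -0.20 to 0.17 (limma adjusted p = 0.966). The intervals of Maob and Maoa overlap, and the difference between their diet effects was not tested. The only Maoa probeset is of the kind open to cross-hybridisation, so the alternative fit without such probesets gave no value for Maoa.

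**Figure D2:**
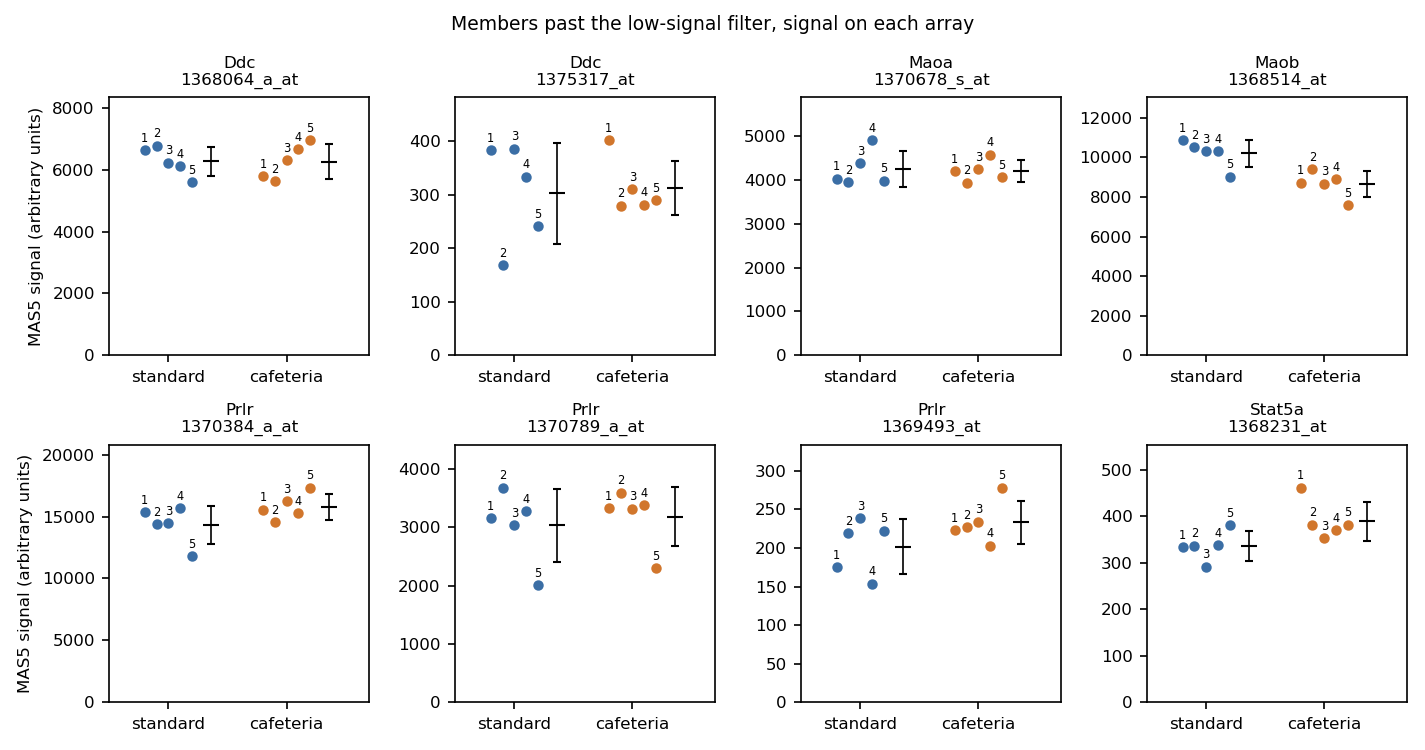
MAS5 signal (arbitrary units, from 0) on each array for the 8 member probesets past the filter, standard diet in blue and cafeteria diet in orange, with replicate numbers beside the points and the group mean ± SD as a black bar (n = 5). For Maob 4 of 5 cafeteria arrays lie below every standard array, for the brighter Ddc probeset and Maoa the groups overlap over most of their range, and for Stat5a 3 of 5 cafeteria arrays lie above every standard array.

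Maob and Maoa are neighbours on chromosome X, transcribed towards each other from promoters at the far ends. The 250 bases before each annotated start are shown because these enzymes break down serotonin and Maob gave the lowest p of the members past the filter; they are from RefSeq, build GRCr8, on the strand of the gene. Capitals mark GGGCGG on either strand, the GC box bound by Sp1 family factors. The start sites and the array's probesets were not matched to each other.
Maob, chrX:8490155-8490404, plus strand: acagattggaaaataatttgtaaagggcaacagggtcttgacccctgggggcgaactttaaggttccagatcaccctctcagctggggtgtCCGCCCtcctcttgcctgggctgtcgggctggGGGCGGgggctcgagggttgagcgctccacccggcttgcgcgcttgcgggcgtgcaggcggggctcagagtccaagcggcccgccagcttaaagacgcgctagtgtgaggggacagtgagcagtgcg
Maoa, chrX:8681373-8681622, minus strand: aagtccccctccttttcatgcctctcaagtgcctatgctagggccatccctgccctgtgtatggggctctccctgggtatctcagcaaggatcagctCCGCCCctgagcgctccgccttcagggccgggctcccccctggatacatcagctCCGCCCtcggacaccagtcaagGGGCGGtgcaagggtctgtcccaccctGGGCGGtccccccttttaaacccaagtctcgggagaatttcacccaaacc
Maob had 2 such matches, 159 and 127 bases before the start, and Maoa had 4, at 153, 99, 77 and 50 bases. Of 33469 annotated windows of this length 30.5% held at least 1, so a match is common, and it is a match of letters and not a mapped site.

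Downstream of the monoamine oxidases, Aldh2 was the gene with the lowest p of the storage and breakdown list. It encodes mitochondrial aldehyde dehydrogenase, which oxidises the aldehyde that monoamine oxidase leaves. Its signal was 273.3, 267.6, 321.1, 294.1 and 302.0 in the standard arrays. The cafeteria arrays read 239.2, 209.3, 247.2, 195.0 and 237.7, all below every standard array. Groups failed to overlap for 2.44% of all probesets past the filter. The log2 difference was -0.35 (SE 0.088, limma adjusted p = 0.398). It was -0.26 after adjustment for the GAPDH ratio (adjusted p = 0.511) and -0.28 for the immune marker mean (adjusted p = 0.655), and it lay between -0.39 and -0.30 when any array was left out. The list had 9 names; 8 had a probeset and 3 passed the filter, all lower, with a median of -0.162: Aldh2, the transglutaminase Tgm2 (-0.16, SE 0.295, with its other probeset at 0.04) and Aldh1a1 (-0.027, SE 0.078). Leaving out an array moved that median between -0.349 and -0.024, the latter without standard replicate 5.

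The serotonin receptors were dim. Htr2b, the receptor tied to beta cell proliferation in pregnancy, read 2.2, 24.4, 16.3, 19.9 and 16.4 in standard replicates 1 to 5 (probeset 1369456_at, percentile 12.3). The cafeteria arrays read 29.6, 30.9, 28.4, 24.8 and 38.6. All 5 cafeteria arrays lay above every standard array, though the nearest arrays, at 24.4 and 24.8, were hardly apart. Among the 12417 probesets under the filter 0.507% had this pattern with the cafeteria group higher, and 0.886% had groups that did not overlap in either direction. In the fit without the filter the log2 difference was 0.62 (SE 0.211, limma adjusted p = 0.622). Its unadjusted p was under 0.05 there, as for 7.59% of all probesets. With signals this low, next to a pseudocount of 14.15, the size of the difference depends on the pseudocount, and whether the gene was detected is not known.

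Htr1d read between 6.8 and 10.5 in the standard arrays and between 3.7 and 8.0 in the cafeteria arrays, at percentile 2.2. It lay near the bottom of the array's range in both groups, with overlapping groups and a log2 difference of -0.12 (SE 0.092, limma adjusted p = 0.745). Of 12 other serotonin receptor genes, all had a probeset and 1, Htr5b, passed the filter, at a log2 difference of -0.16 (SE 0.101, adjusted p = 0.567). Htr5b stood at -0.034 after adjustment for the GAPDH ratio and at -0.082 without cafeteria replicate 3. Cells of other kinds that hold serotonin had low markers too: of 12 mast cell markers 5 and of 6 platelet markers 2 passed the filter. The mast cell sums ran from 718.4 to 923.2 in the standard and from 789.0 to 1125.1 in the cafeteria arrays. The platelet sums ran from 468.0 to 603.0 and from 444.6 to 626.1.

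**Figure D3:**
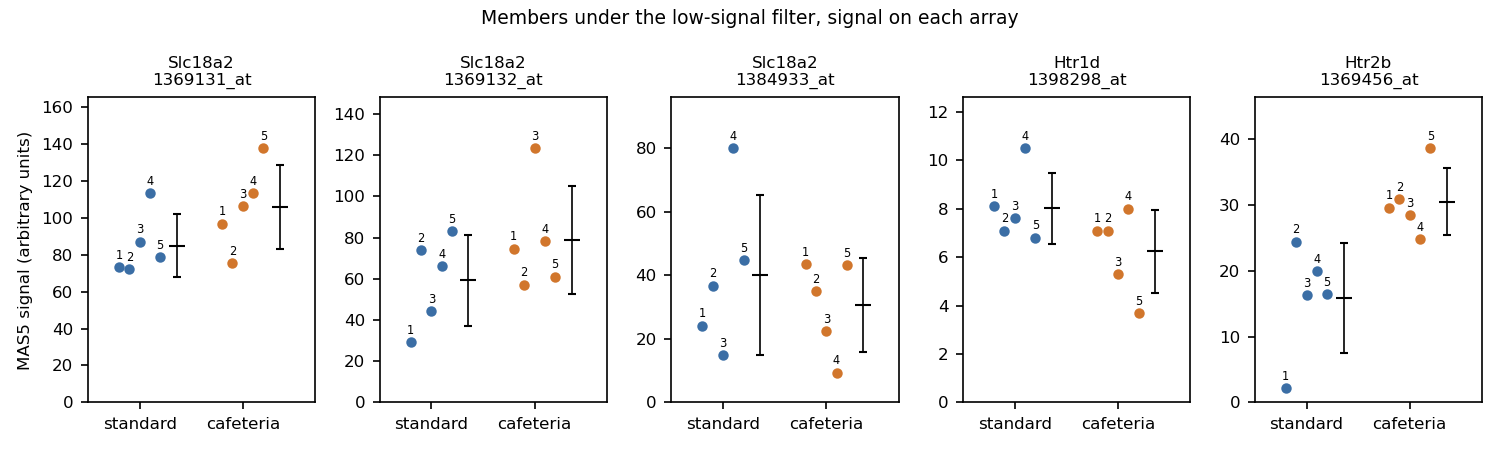
MAS5 signal (arbitrary units, from 0, a separate scale in each panel) on each array for the 5 member probesets under the brightness filter, with replicate numbers and the group mean ± SD (n = 5). All 5 cafeteria arrays lie above the standard arrays for Htr2b, while the groups overlap for Htr1d and the 3 Slc18a2 probesets.

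The prolactin receptor gave a bright signal in every array and was slightly higher in the cafeteria group in all 3 probesets, none past the test. The brightest Prlr probeset (1370384_a_at, percentile 99.7) read 15377.4, 14370.4, 14442.4, 15669.9 and 11816.9 in standard replicates 1 to 5. In the cafeteria arrays it read 15562.1, 14518.8, 16221.6, 15290.5 and 17333.7. All 5 cafeteria arrays exceeded the median of the standard arrays and 2 exceeded all of them, so the groups overlapped. The means were 14335.4 ± 1518.4 (SD, n = 5) and 15785.3 ± 1059.1 (SD, n = 5), a log2 difference of 0.14 (SE 0.093) with a 95% interval from -0.061 to 0.35 (limma adjusted p = 0.584). On the fold scale the interval ran from 0.96 to 1.27. The lowest standard and the highest cafeteria value came from the replicates with the lowest and the highest beta cell marker sums, standard replicate 5 and cafeteria replicate 5. The difference was 0.075 when standard replicate 5 was left out (adjusted p = 0.76) and 0.11 when cafeteria replicate 5 was. The summed signal of 5 alpha cell markers, most of it from the glucagon gene Gcg, ran from 25132.6 to 34153.6 in the standard and from 33848.3 to 39522.0 in the cafeteria arrays, which overlap. Gcg differed by 0.23 in log2, and of the 5 alpha cell markers 3 were higher and 2 lower in the cafeteria group. The part of other endocrine cells in the Prlr values was not tested.

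The 3 Prlr probesets followed each other only in part. Over the 10 arrays, with diet means subtracted, the brightest correlated with 1370789_a_at at r = 0.31 and with 1369493_at at r = -0.24, as a description of arrays that share their RNA and scaling. Probeset 1370789_a_at averaged 3032.9 ± 620.2 (SD, n = 5) and 3180.9 ± 506.5 (SD, n = 5), a log2 difference of 0.080 (SE 0.170, limma adjusted p = 0.883). It was lowest in standard replicate 5 at 2010.4, as was the brightest probeset, and next lowest in cafeteria replicate 5 at 2297.0, where the brightest probeset was highest. Its difference turned to -0.061 without standard replicate 5, to -0.17 after adjustment for the GAPDH ratio and to -0.052 for the immune marker mean. Probeset 1369493_at averaged 201.7 ± 35.5 (SD, n = 5) and 233.1 ± 27.8 (SD, n = 5), a log2 difference of 0.21 (SE 0.126, adjusted p = 0.564), which was 0.12 without standard replicate 4. Like the brightest probeset, it was highest in cafeteria replicate 5, at 278.2. Which receptor transcripts each probeset reads is not given in the sources used here. The genes most like the brightest Prlr probeset were Scg5, the prohormone convertase chaperone 7B2 (r = 0.919), the glucagon gene Gcg (r = 0.911) and Sugp1 (r = 0.910), by Pearson correlation over the 10 arrays after the diet means were subtracted, out of 10300 genes. These correlations too are a description.

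RefSeq places Prlr starts at more than 1 position, and the promoters of the 10 named genes came to 13 windows of 250 bases. TTCNNNGAA, the element that Stat5 dimers bind, searched on both strands, was found in 2 of the 13, before a Prlr start and a Ddc start, and in 7.67% of all 33469 windows. The Prlr window is shown because the receptor and its transcription factor Stat5a are both members; capitals mark the match, 176 bases before the start in build GRCr8. It is a match of letters, and no binding was measured.
Prlr, chr2:60909409-60909658, plus strand: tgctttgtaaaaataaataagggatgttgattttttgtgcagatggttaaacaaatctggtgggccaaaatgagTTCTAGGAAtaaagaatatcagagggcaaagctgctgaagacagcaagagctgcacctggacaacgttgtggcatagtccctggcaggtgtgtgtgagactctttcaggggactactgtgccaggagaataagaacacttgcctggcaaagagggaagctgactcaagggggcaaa

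Stat5a, the transcription factor that carries the prolactin signal to the nucleus, was higher in most cafeteria arrays without passing. It read 333.5, 337.2, 292.0, 339.0 and 381.4 in standard replicates 1 to 5 (probeset 1368231_at). The cafeteria arrays read 462.1, 382.5, 353.2, 370.3 and 382.2, with 3 of 5 above every standard array and all 5 above the standard median. The means were 336.6 ± 31.7 (SD, n = 5) and 390.1 ± 42.0 (SD, n = 5), a log2 difference of 0.20 (SE 0.095) with a 95% interval from -0.005 to 0.41. The unadjusted limma p was 0.0548 and the adjusted p 0.48. Its paralog Stat5b differed by 0.12 (SE 0.125) and the kinase Jak2 by 0.079 (SE 0.108), in the same direction and with adjusted p of 0.732 and 0.809.

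The other genes of the prolactin signal lay on both sides of 0. Of 16 names for JAK-STAT5 signalling and feedback, 15 had a probeset and 12 passed the filter, 7 higher and 5 lower, with a median of 0.049 beside -0.004 over all genes tested. At an unadjusted p under 0.05 there were 0 higher and 2 lower of the 12, where 10.3% of all genes reached that mark. The kinase Jak1 read 2585.8, 2193.3, 2309.3, 2396.3 and 2461.9 in the standard arrays. In the cafeteria arrays it read 2007.5, 2069.7, 2161.2, 1999.9 and 1857.4, so the groups did not overlap (2.44% of probesets past the filter). Its log2 difference was -0.24 (SE 0.075, limma adjusted p = 0.407), and its other probeset lay at -0.18. The STAT inhibitor Pias3 differed by -0.19 (SE 0.083, adjusted p = 0.469), and by -0.039 after adjustment for the GAPDH ratio. The phosphatase Ptpn1 differed by 0.22 (SE 0.099, adjusted p = 0.48). Of the feedback inhibitors that Stat5 induces, Socs2 averaged 272.8 ± 82.5 (SD, n = 5) and 205.0 ± 65.0 (SD, n = 5), a log2 difference of -0.39 (SE 0.216, adjusted p = 0.531). For Socs2 it was -0.032 after adjustment for the GAPDH ratio and ran from -0.55 to -0.24 when an array was left out. Cish differed by -0.17 (SE 0.362, adjusted p = 0.883), with its other probeset at 0.04.

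**Figure D4:**
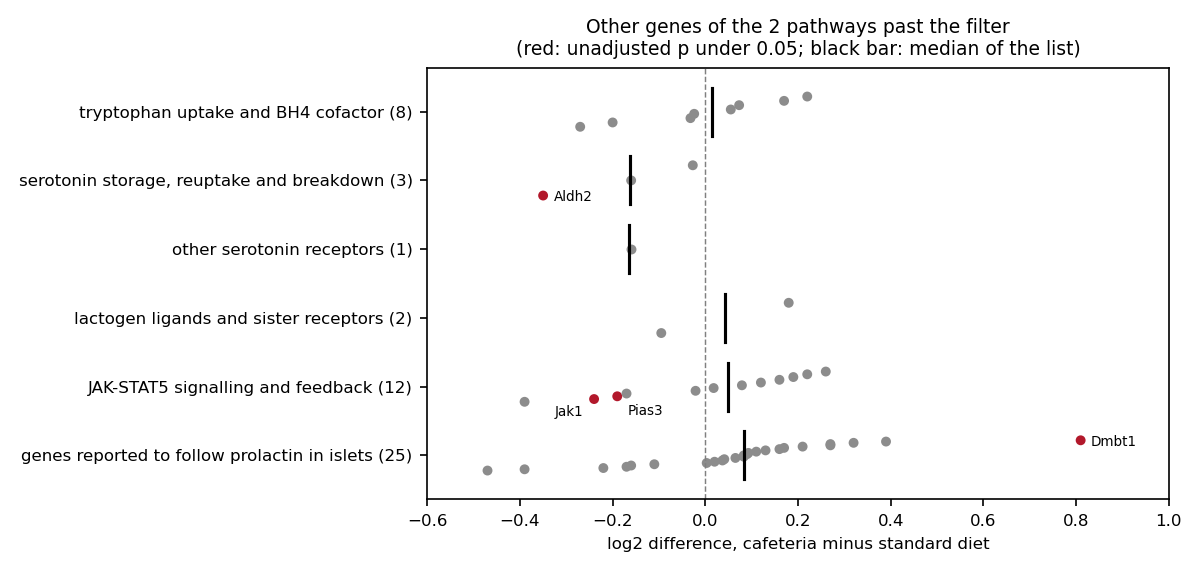
Log2 difference, cafeteria minus standard diet, on the horizontal axis for each gene past the filter in the 6 lists of other pathway genes, with the number of genes in parentheses, the list median as a black bar and genes with an unadjusted p under 0.05 in red. The medians lie between -0.164 and 0.083, and Aldh2, Jak1, Pias3 and Dmbt1 are the red points.

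The ligands and the islet targets of prolactin completed the pathway. Prl averaged 7.5 and 6.0 and Prl3b1, a placental lactogen gene, 45.2 and 52.3 in the standard and cafeteria groups, both under the filter. The growth hormone receptor Ghr, a sister of Prlr, averaged 2164.6 ± 134.4 (SD, n = 5) and 2459.2 ± 279.7 (SD, n = 5), a log2 difference of 0.18 (SE 0.092, adjusted p = 0.516); the other gene of this list past the filter, Epor, differed by -0.095 (SE 0.211). Of 30 genes reported to follow prolactin in islets, 28 had a probeset and 25 passed the filter, 19 higher and 6 lower, with a median of 0.083, beside 48.7% higher over all genes tested. That median was 0.046 under median centring, 0.155 after adjustment for the GAPDH ratio and 0.128 with the mean of each gene's probesets. The list holds genes that prolactin raises, such as Tnfrsf11b, and Men1, which it lowers. The count of higher genes is therefore not a count in a single direction of response. At an unadjusted p under 0.05 there was 1 of the 25, against 10.3% of all genes: Dmbt1, which epithelial cells secrete. It averaged 183.2 ± 106.4 (SD, n = 5) and 318.4 ± 128.9 (SD, n = 5) with overlapping groups, a log2 difference of 0.81 (SE 0.327, adjusted p = 0.444), and 0.55 after adjustment for the GAPDH ratio.

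Among the cell cycle genes of that list, cyclin B1 (Ccnb1) differed by 0.39 (SE 0.183, adjusted p = 0.482) and by 0.22 to 0.50 when an array was left out. The 0.22 was without cafeteria replicate 5, which read 578.4 against 256.9 to 336.3 in the other cafeteria arrays. Cyclin D2 (Ccnd2), a cyclin beta cells need to expand, averaged 17698.5 ± 1652.9 (SD, n = 5) and 19702.0 ± 1620.4 (SD, n = 5), a log2 difference of 0.16 (SE 0.092, adjusted p = 0.55). The proliferation marker Mki67 differed by 0.21 (SE 0.205), and the cell cycle inhibitor Cdkn1b by -0.16 (SE 0.103). Bcl6, a repressor that opposes Stat5, differed by -0.47 (SE 0.301), Men1, the menin gene that prolactin lowers in pregnancy, by 0.090 (SE 0.104), and osteoprotegerin (Tnfrsf11b), a prolactin-induced gene of beta cells, by 0.065 (SE 0.117). Ttyh1, a chloride channel gene, differed by -0.22 (SE 0.131), with its other probeset at 0.12. Over all 6 lists, 86 different genes were named, 77 had a probeset and 49 passed the filter, 31 higher and 18 lower. Of the 49, 4 had an unadjusted p under 0.05 (8.16%, against 10.3% of all genes) and 0 passed the adjusted threshold (lowest adjusted p = 0.398).

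**Figure D5:**
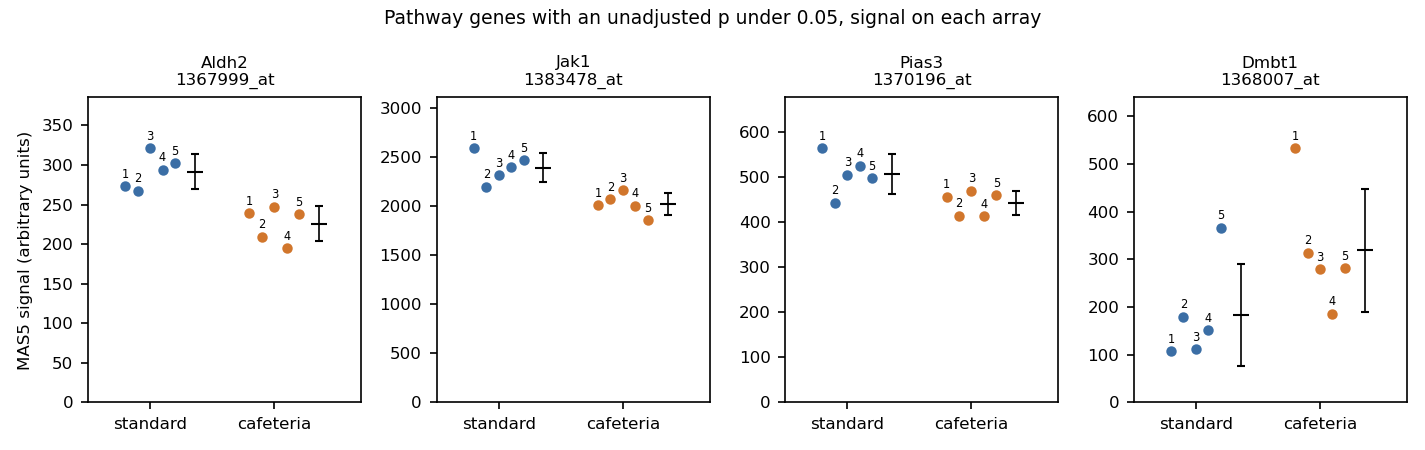
MAS5 signal (arbitrary units, from 0) on each array for the 4 other pathway genes with an unadjusted p under 0.05, with replicate numbers and the group mean ± SD (n = 5). The groups do not overlap for Aldh2 and Jak1 and overlap for Pias3 and Dmbt1; the adjusted p of the 4 lies between 0.398 and 0.469.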

How the data were processed

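Total RNA of islets from 5 independent samples on each diet was hybridised to 10 arrays. The deposited values are linear intensity values, which the submitters' processing notes credit to MAS5 without a version; the trimmed means of 500.1 to 500.2 show that the authors' values were already scaled to a common level. Detection calls were not used here. Log2(value + 14.15), with the 10th percentile of all values as pseudocount, was tested with limma 3.58.1 (R 4.3.3; lmFit, eBayes) for probesets above percentile 40 in mean log2 value, adjusted by Benjamini-Hochberg. A fold change on this scale understates that of dim genes. Named are all members, up to 4 genes of lowest p in each pathway list, and the 3 genes most like Prlr (Tph1 and Tph2 had no probeset to match); Stat5b, Jak2, Cish, the under-filter genes and the cell cycle and target genes beyond the first 4 were chosen after their values were seen. A gene is named from its brightest probeset. The members and lists were chosen with earlier results of these data known. Alternatives changed the pseudocount, the filter, the scaling (quantile, median), the variance model and the weights of arrays, blocked on the replicate number, adjusted for the GAPDH ratio or the immune or acinar marker mean, averaged a gene's probesets, dropped cross-hybridising ones, or left out an array. Deviations from the group mean correlated over 0.1 in 3 of 5 pairs of same-numbered replicates (0.003, 0.296, 0.251, -0.002 and 0.144 for replicates 1 to 5). Without the correlations of differently numbered pairs beside them, these values do not decide whether the numbers pair samples. The main fit did not pair them. Gene names come from the platform annotation; the 8 genes matched RefSeq (GRCr8) with the same symbol. The number of arrays limits the precision.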

Additional observations from a re-analysis of the deposited data

Results flagged for a closer look

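An array far from the other 4 of its group, by Dixon's criterion, was found in 4 of 60 sets of 5 arrays, where chance gives about 1 in 20 (3.0). The values are log2. Maob was lowest in standard replicate 5 at 13.14, with the others between 13.33 and 13.41, and that array had the lowest beta cell and alpha cell marker sums (102516.2 and 25132.6). The lowest Maob signal of all arrays, 7572.0, was in cafeteria replicate 5, which had the highest of both sums (149928.9 and 39522.0). The diet difference of Maob was -0.28 without standard replicate 5 and -0.19 without cafeteria replicate 5. Htr2b was lowest in standard replicate 1 at 4.03, with the others between 4.93 and 5.27. The second Prlr probeset (1370789_a_at) was lowest in cafeteria replicate 5 at 11.17, with the others between 11.70 and 11.82. The dimmer Ddc probeset (1375317_at) was highest in cafeteria replicate 1 at 8.70, with the others between 8.20 and 8.34.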

How the results depend on the processing

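The 24 alternatives included 10 that omit an array. Of 185 values for member probesets, 171 kept their direction and stayed above the adjusted threshold and 14 turned; since none passed to begin with, this says little. Maob stayed between -0.30 and -0.19, Stat5a between 0.14 and 0.25, and the brightest Prlr probeset between 0.075 and 0.24. The count of members past the adjusted threshold was 0 in all 24; over the array, leaving out an array gave 0 to 1 (Emp1, without standard replicate 2).

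The count of members at an unadjusted p under 0.05, 1 in the fit above, was 2 after adjustment for the GAPDH ratio (the dimmer Ddc probeset), with array weights and with gene means (Stat5a), and with no filter (Htr2b), and 1 to 2 when an array was left out (Stat5a without cafeteria replicate 3 or standard replicate 5; Slc18a2 without cafeteria replicate 2). With the replicate block it was 1 and Maob had an adjusted p of 0.33.

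The brighter Ddc probeset turned to 0.019 with the GAPDH ratio, 0.008 with the acinar mean and 0.045 with gene means, and ran from -0.043 to 0.035 when an array was left out. Maoa turned to 0.005 with the GAPDH ratio and ran from -0.044 to 0.040. The second Prlr probeset turned to -0.17 with the GAPDH ratio and -0.052 with the immune mean, and ran from -0.061 to 0.19. The dimmer Ddc probeset ran from -0.090 to 0.19. Tgm2 turned to 0.085 and 0.14 with the GAPDH ratio and the immune mean, and Epor to 0.15 and 0.092, running from -0.22 to 0.051. Aldh1a1 turned to 0.003 with array weights and ran from -0.059 to 0.003. The list medians for the cofactor and for the lactogen ligands and sister receptors, 0.015 and 0.042, also moved, to -0.022 and 0.004 under median centring and to -0.097 and 0.172 with the GAPDH ratio. The cause of these moves was not tested.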
